A study of Mus musculus and Ictidomys tridecemlineatus with 36 samples.

Results

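Active enhancers that carried H3K27ac and H3K4me1 but no Otx2 or Neurod1 peak were the largest class of H3K27ac peaks in both retinas, with 49405 of 93999 peaks (52.6%) in 13-lined ground squirrel (13LGS) and 26690 of 62930 (42.4%) in mouse. They were selected on the deposited peak lists: within a species, an H3K27ac peak under 4000 bp wide was kept if it shared at least 1 bp with an H3K4me1 peak and none with an H3K4me3, Otx2 or Neurod1 peak. Because these calls defined the regions, their marks and the missing factor peaks are a description, and no test was made of them. Here "unbound" means only that neither factor had a called peak on the region. Other factors were not measured.

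CUT&RUN cuts the DNA around an antibody bound to chromatin, and the released fragments are sequenced. The series holds 36 libraries in 12 groups: 16 libraries of P5 retina from 13LGS and 20 of P2 retina from mice, stages matched for late retinal progenitors and photoreceptor precursors. Each 13LGS replicate pooled retinas of 2 animals with 500000 nuclei per reaction, and each mouse replicate pooled 3 animals with 385000 nuclei. No genotype or treatment distinguished the groups. In 13LGS every histone mark had a single library, from the same biological replicate, while Otx2 had 6, Neurod1 had 4 and the IgG control had 3. In mouse the marks and IgG had 2 libraries apiece, Otx2 had 8 and Neurod1 had 4. Otx2 libraries used antibodies from R&D Systems and from Atlas Antibodies. Each target has 1 peak list per species that pools all its libraries, so no value has a replicate spread, the depth behind it is unknown, and intervals given here are 95% Wilson intervals that cover counting error only. Neighbouring peaks share libraries and often a chromatin domain, so they are not independent replicates either. The tissue is bulk retina, in which a mark in few cells and a weak mark in many cells cannot be told apart. Species also differed in stage, library number and assembly, and these cannot be told apart from species.

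H3K4me1 is deposited by the MLL3 and MLL4 methyltransferases at enhancers, both primed and active, whereas H3K27ac, written by the acetyltransferases p300 and CBP, marks those in use. H3K4me3 is the mark of active promoters. Otx2 is a homeodomain TF required for photoreceptor and bipolar fate, and Neurod1 is a basic helix-loop-helix TF of photoreceptor precursors and amacrine cells. Retinal progenitors and glia rely on other regulators, including Sox, NFI, Notch and Lhx2 pathways.

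The sequences of 5 mouse regions are given as examples. These are strong members, with folds of 6.64 to 7.46 on peaks 1175 to 2628 bp wide, against class medians of 3.48 and 500 bp. For 4 of them, the rule was the strongest unbound enhancer in the gene or within 50 kb of a listed progenitor, glial, photoreceptor, or amacrine and horizontal gene. The photoreceptor region is the strongest one outside an untranslated region. The *Thrb* region was added after its values had been seen, because *Thrb* is a gene on which the study centres. Each is 300 bases around the H3K27ac summit on the plus strand of the RefSeq GRCm38 genome, and capitals mark every match, on either strand, to 10 searched motifs.
Ccnd1, chr7:144977361-144977660: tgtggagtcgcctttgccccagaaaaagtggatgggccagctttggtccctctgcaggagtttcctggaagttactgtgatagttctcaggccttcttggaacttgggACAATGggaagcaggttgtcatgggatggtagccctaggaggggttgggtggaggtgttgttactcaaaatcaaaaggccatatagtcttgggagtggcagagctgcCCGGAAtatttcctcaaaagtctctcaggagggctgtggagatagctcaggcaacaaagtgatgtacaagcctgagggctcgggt
Slc1a3, chr15:8741798-8742097: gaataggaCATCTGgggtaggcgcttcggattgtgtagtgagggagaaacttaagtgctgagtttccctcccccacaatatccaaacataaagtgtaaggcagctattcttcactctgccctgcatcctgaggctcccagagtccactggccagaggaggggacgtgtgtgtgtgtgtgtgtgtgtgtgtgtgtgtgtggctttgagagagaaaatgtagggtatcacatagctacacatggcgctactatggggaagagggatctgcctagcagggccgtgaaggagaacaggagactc
Neurod1, chr2:79406120-79406419: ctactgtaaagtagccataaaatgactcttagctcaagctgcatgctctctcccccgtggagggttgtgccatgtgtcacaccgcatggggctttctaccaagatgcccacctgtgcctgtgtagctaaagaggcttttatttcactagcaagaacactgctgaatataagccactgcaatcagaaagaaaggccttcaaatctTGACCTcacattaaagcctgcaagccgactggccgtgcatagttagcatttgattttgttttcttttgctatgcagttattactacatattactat
Slc6a9, chr4:117823664-117823963: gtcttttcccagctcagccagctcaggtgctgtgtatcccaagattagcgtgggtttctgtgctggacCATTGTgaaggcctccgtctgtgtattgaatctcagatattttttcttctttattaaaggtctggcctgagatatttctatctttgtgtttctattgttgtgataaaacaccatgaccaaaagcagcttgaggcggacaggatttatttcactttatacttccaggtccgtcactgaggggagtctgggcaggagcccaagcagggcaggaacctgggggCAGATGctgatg
Thrb, chr14:17920900-17921199: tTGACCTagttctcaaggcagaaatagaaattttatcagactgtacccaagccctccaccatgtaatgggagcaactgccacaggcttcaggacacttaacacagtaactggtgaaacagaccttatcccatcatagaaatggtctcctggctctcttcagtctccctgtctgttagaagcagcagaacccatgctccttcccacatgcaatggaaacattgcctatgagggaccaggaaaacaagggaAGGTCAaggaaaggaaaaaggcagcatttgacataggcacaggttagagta
The *Ccnd1* region is intergenic, 37.6 kb from the TSS of the cyclin D1 gene, and holds a Sox match (ACAATG) at base 109 and an ETS match (CCGGAA) at base 216, counted from the first base printed. The *Slc1a3* region, intergenic and 31.2 kb from the TSS of the glial glutamate transporter gene, holds 1 Neurod1 match (CAGATG, read here on the minus strand) at base 9, although no Neurod1 peak was called on it. The *Neurod1* region lies in an intron of *Cerkl*, 50.5 kb from the *Neurod1* TSS, and holds 1 nuclear receptor hexamer (AGGTCA, on the minus strand) at base 205. Its peak starts at 79406141, so the first bases printed lie outside it. The *Slc6a9* region is intergenic, 10.7 kb from the TSS of the glycine transporter gene of amacrine cells, and holds a Sox match on the minus strand at base 69 and a Neurod1 match at base 289. The *Thrb* region is in an intron of the thyroid hormone receptor gene itself, 261 kb from the TSS, and holds 2 nuclear receptor hexamers, at bases 2 and 250. None of the 5 holds TAATCC, the core bound by Otx2 and its relative Crx, which was found in only 9.51% of all unbound enhancers in mouse.

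Of the 57097 H3K27ac peaks in 13LGS that were under 4000 bp, carried H3K4me1 and lacked H3K4me3, 86.5% (86.2 to 86.8) were unbound. In mouse, 81.3% (80.8 to 81.7) of 32841 were. The remaining 7692 in 13LGS comprised 5732 with Otx2 only, 601 with Neurod1 only and 1359 with both, and the remaining 6151 in mouse comprised 4452, 213 and 1486. There were 1.85 times as many unbound enhancers in 13LGS as in mouse. When every list was cut to the same number of peaks in both species, the ratio was 1.32 and the shares were 82.9% and 81.8%.

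By their medians, unbound enhancers were narrower and weaker than enhancers with a factor peak, but slightly wider than all H3K27ac peaks. Their median width was 507 bp in 13LGS and 500 bp in mouse, against 455 and 432 bp for all H3K27ac peaks. The middle 50% of unbound enhancers spanned 324 to 894 bp and 326 to 866 bp. Their median H3K27ac fold enrichment over IgG was 3.29 (range 1.46 to 17.1) in 13LGS and 3.48 (range 1.64 to 15.7) in mouse, against 3.18 and 3.36 for all H3K27ac peaks. A fold of at least 4 was reached by 24.2% of unbound enhancers in 13LGS, where 22.6% of all H3K27ac peaks reached it, and by 30.2% in mouse, where 25.4% of all did. They therefore sat near the whole list in strength, although they themselves make up 52.6% and 42.4% of it. Enhancers with both factors were wider and stronger, with medians of 1541 bp and a fold of 4.57 in 13LGS and of 1205 bp and 4.31 in mouse. H3K27ac peaks with no other mark or factor were narrower and weaker, with medians of 320 bp and 2.90 in 13LGS and 336 bp and 3.13 in mouse. In 13LGS, the width limit separated 214 enhancers of 3507 to 3998 bp (median fold 6.27) from 125 peaks of 4009 to 4499 bp that met every other criterion (6.30). In mouse, 90 enhancers of 3502 to 3995 bp (6.61) lay just inside and 42 peaks of 4023 to 4493 bp (6.33) just outside.

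The share without a factor peak fell as H3K27ac peaks became wider. A wider peak has more room to share 1 bp with a factor peak, and how much of the fall follows from this was not tested. In 13LGS it was 95.1% under 300 bp, 89.3% at 500 to 1000 bp and 54.9% (53.4 to 56.3) at 2000 to 4000 bp, and in mouse it was 91.4%, 83.5% and 47.3% (45.3 to 49.3). It fell with enrichment in the same manner, from 93.0% below a fold of 3 to 43.2% (40.1 to 46.2) at a fold of 8 or more in 13LGS, and from 87.4% to 38.3% (34.7 to 42.0) in mouse. At the highest enrichments, then, most H3K4me1-marked active enhancers had an Otx2 or Neurod1 peak in both species. Width and enrichment rose together among unbound enhancers (Spearman's coefficient 0.54 in 13LGS and 0.52 in mouse), and the step with enrichment was smaller among peaks of 500 to 1000 bp: from 91.0% to 78.5% (73.3 to 83.0) in 13LGS and from 84.5% to 68.7% (62.2 to 74.6) in mouse between folds under 3 and of 6 or more. The low-enrichment share in mouse was flat over the first bins, at 84.5% under a fold of 3 and 85.1% at 3 to 4.

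**Figure D1:**
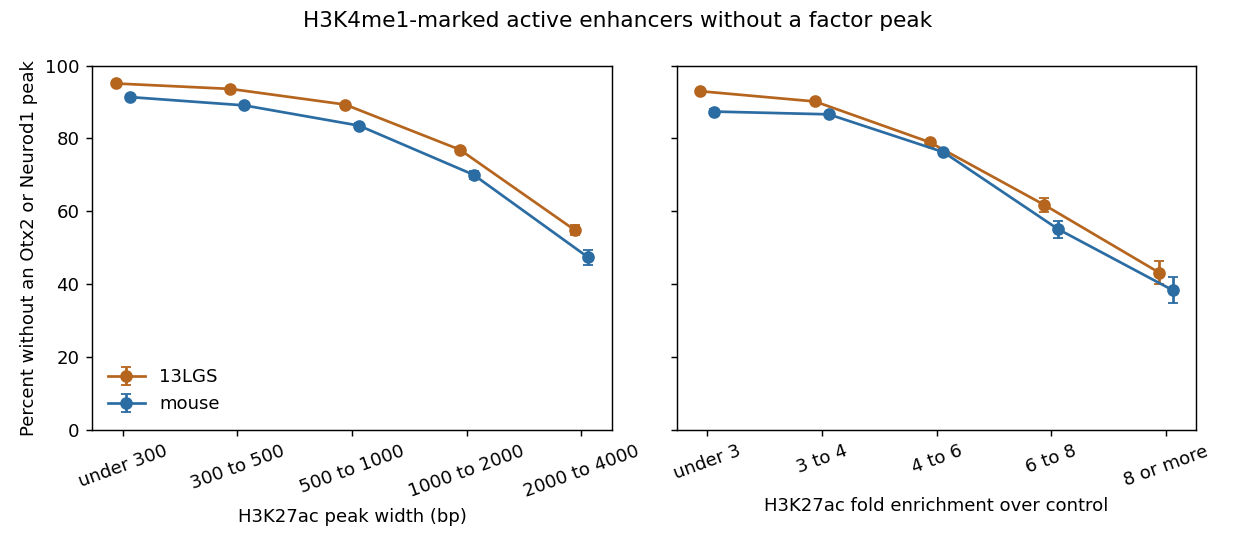
Percent of H3K4me1-marked active enhancers without an Otx2 or Neurod1 peak (y axis) by H3K27ac peak width in bp (left) and by H3K27ac fold enrichment over IgG (right), in 13LGS and mouse. Points are shares and bars 95% Wilson intervals (counting error only). Both species fall from above 87% in the lowest bins to between 38.3% and 54.9% in the highest. Wider peaks have more room to overlap a factor peak.

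By their medians, the H3K4me1 peaks under these enhancers were wider and stronger than all H3K4me1 peaks, as were those under enhancers with a factor peak. Under unbound enhancers the median width was 1826 bp in 13LGS and 2008.5 bp in mouse, against 808 and 805 bp over all H3K4me1 peaks. In 13LGS, 39327 H3K4me1 peaks (27.8% of the list) carried at least 1 unbound enhancer, and in mouse 21767 (16.0%) did. Their median H3K4me1 fold, taken per enhancer, was 6.89 in 13LGS and 8.41 in mouse, against 3.96 and 4.25 over all H3K4me1 peaks. Width and fold count the widest or strongest H3K4me1 peak under each enhancer, so the whole list is not like for like. Taken in the same way under all H3K27ac peaks, the medians were higher than under unbound enhancers. They were 2019 bp and a fold of 7.21 in 13LGS, and 2274 bp and 8.78 in mouse. The H3K27ac peak lay wholly inside its H3K4me1 peak in 69.0% and 70.8% of cases, and 93.3% and 92.2% of H3K27ac summits fell within one. Both summits were a median of 262 bp apart in 13LGS and 293 bp in mouse. A single H3K4me1 peak held up to 13 unbound enhancers in 13LGS and 12 in mouse. For 12.6% of unbound enhancers in 13LGS and 14.7% in mouse, a factor peak lay elsewhere in the same H3K4me1 peak, beside 13.4% and 16.4% of all H3K4me1 peaks that overlapped one. The former shares count enhancers and the latter count H3K4me1 peaks, which are narrower over the whole list, so they are not like for like. Across unbound enhancers, H3K27ac and H3K4me1 folds were weakly related (Spearman's coefficient 0.27 over 49405 regions in 13LGS and 0.18 over 26690 in mouse). Both folds come from the same tissue and share the IgG control.

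Most unbound enhancers were far from any factor peak. The nearest Otx2 peak was a median of 22.5 kb away in 13LGS and 22.0 kb in mouse, and it lay within 1 kb for 5.75% and 7.22% of them. The nearest Neurod1 peak was 208 kb and 211 kb away, on lists several times shorter than those of Otx2. The nearest H3K4me3 peak was 76.0 kb and 72.1 kb away. H3K27ac peaks without H3K4me1 or a factor lay farther from Otx2, at medians of 44.9 kb and 40.5 kb. Unbound enhancers also lay close to each other, with a median gap to the next one of 9.30 kb in 13LGS and 17.3 kb in mouse, where the list is shorter.

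**Figure D2:**
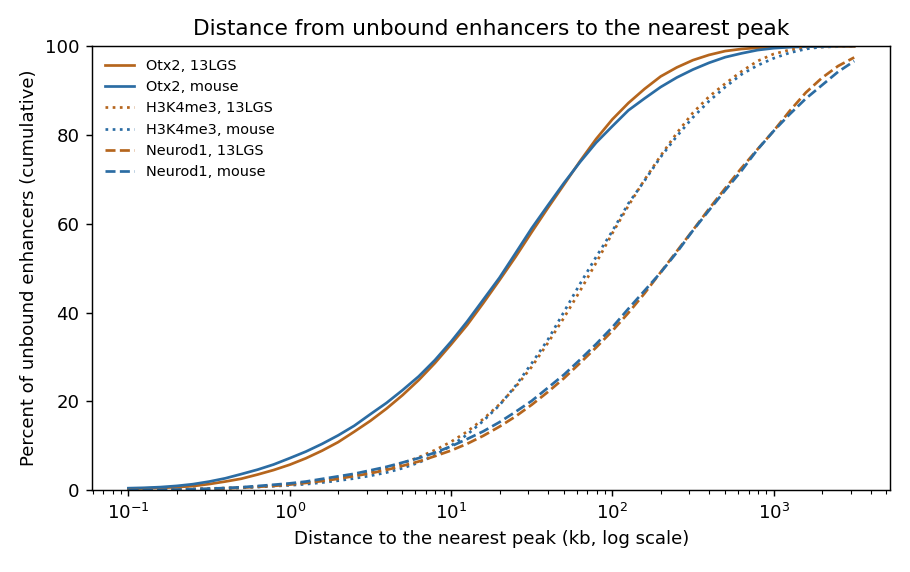
Cumulative percent of unbound enhancers (y axis) within a distance in kb (x axis, log scale) of the nearest Otx2, H3K4me3 or Neurod1 peak in 13LGS and mouse. The curves of both species nearly coincide for each target, with medians of 22.5 and 22.0 kb for Otx2, 76.0 and 72.1 kb for H3K4me3, and 208 and 211 kb for Neurod1.

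Some unbound enhancers lay in runs, and many stood alone. Joined where they lay within 10000 bp of each other, they made 1803 runs of at least 5 in 13LGS, which held 14197 of them (28.7%), and 650 such runs in mouse, which held 4929 (18.5%). Of all H3K27ac peaks, which are more numerous, 46.7% and 40.2% lay in runs of at least 5 made in this way. Another 13895 unbound enhancers in 13LGS (28.1%) and 10132 in mouse (38.0%) had no other within that distance. The 13LGS run with the most members, Itri4:35456195-35624828 of HiC_Itri_2, held 66 unbound enhancers (fold 2.10 to 8.94) over 169 kb and 4 bound ones. Runs of 38 at Itri1:128897392-128994974 and of 34 at Itri21:3990226-4090259 held no bound enhancer. Runs of 37 on Itri12 and 35 on Itri8 contained 7 and 3. In mouse, the run with the most members covered 174 kb at *Chd7* (chr4:8703814-8877501), which encodes a chromatin remodeller, with 53 unbound and 3 bound enhancers. It was followed by 45 with 1 bound at *Srgap3* (chr6:112819638-112937761), a regulator of the actin cytoskeleton, and by runs of 27 at *Cdh2* (N-cadherin), *Med27* (a Mediator subunit) and *Ppp3ca* (the catalytic subunit of calcineurin), with 0, 3 and 0 bound. The 13LGS genome annotation was not used here, so its runs are given by position.

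The strongest unbound enhancers were few. In 13LGS the 10 highest folds ran from 13.7 to 17.1, led by Itri12:11707520-11711479 (3960 bp, 2.59 kb from an Otx2 peak) and by Itri17:25687487-25689443 (fold 16.7, 29.9 kb from one). Tied with the latter at a fold of 16.7 was Itri2:48884973-48887701, which lay 0.394 kb from an Otx2 peak. In mouse the 10 highest folds ran from 13.0 to 15.7. The first lay 48.3 kb from the TSS of *Rgs3*, a regulator of G protein signalling (chr4:62721630-62724706, fold 15.7), and the next was nearest to *1110051M20Rik* (fold 14.7). Others had as nearest TSS those of *Has2*, which makes hyaluronan, *Toe1*, *Cspg5*, a neural proteoglycan, *Ncald*, *Fer*, *March8* and *Gpm6a*, a neuronal membrane glycoprotein. Among these named mouse regions, the distance to the nearest Otx2 peak ranged from 2.29 kb (*1110051M20Rik*) to 101 kb (*Fer*).

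In mouse, 61.5% of unbound enhancers had their summit in an intron of a protein-coding gene (GENCODE release M21) and 35.0% between genes, beside 58.9% and 31.4% of all H3K27ac peaks. Within 1 kb of a TSS lay 1.40% (373) of them and 6.35% of all peaks, and the rule itself leaves out H3K27ac peaks with H3K4me3, the promoter mark. Coding exons held 0.813% and untranslated regions 1.33%, beside 1.51% and 1.81% of all. The median distance to the nearest TSS was 58.2 kb, against 51.8 kb for all H3K27ac peaks. Enhancers with a factor peak were nearer, at 37.0 kb, and 42.3% of those were intergenic. The 26690 unbound enhancers had 6248 different genes as their nearest TSS. By chromosome, the unbound share ran from 74.6% (chromosome 11) to 87.2% (X) in mouse, and from 81.4% (Itri19, 370 peaks) to 90.9% (Itri15) over the 19 longest 13LGS sequences.

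Genes that mark retinal cell classes were compared through the enhancers in the gene body and within 50 kb on each side. At least 1 unbound enhancer lay there for 43.9% of all 21924 protein-coding genes and for 54.8% of the 11331 with H3K4me3 at the TSS. H3K4me3 lay at the TSS of 17 of 18 progenitor, 15 of 17 glial and 14 of 25 photoreceptor genes. It did so for 1 of 12 bipolar, 13 of 17 amacrine and horizontal, and 10 of 15 ganglion cell genes. The counts of genes with at least 1 unbound enhancer were 14 of 18 progenitor, 14 of 17 glial, 16 of 25 photoreceptor, 8 of 12 bipolar, 8 of 17 amacrine and horizontal, and 6 of 15 ganglion cell genes. For genes of other cells in or next to the tissue they were 3 of 9 for pigment epithelium, 7 of 12 for vessels and pericytes, 5 of 8 for microglia and 3 of 5 for astrocytes. Longer genes have longer windows, and the lists were not matched for length.

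Around the genes of the retinal classes, the share of H3K4me1-marked active enhancers without a factor peak was below the genome-wide 81.3% and the 80.5% near any protein-coding gene in each list. Neighbouring peaks are not replicates, so these differences were not tested. The unbound share was 68.9% (57.7 to 78.3) of 74 near progenitor genes, 68.4% (59.4 to 76.2) of 114 near glial genes, 72.8% (65.1 to 79.3) of 147 near photoreceptor genes and 56.8% (40.9 to 71.3) of 37 near amacrine and horizontal genes. It was 66.7% (47.8 to 81.4) of 27 near bipolar genes and 66.7% (46.7 to 82.0) of 24 near ganglion cell genes, with intervals that reach the genome-wide share. Shares near genes of other cells were 83.7% (pigment epithelium), 76.7% (vessels and pericytes), 73.1% (microglia) and 75.0% (astrocytes) of 43, 30, 26 and 8 enhancers, with intervals that include 81.3%. Median widths of the enhancers near the retinal lists were 448.5 to 599.5 bp, around the 555 bp found genome-wide.

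**Figure D3:**
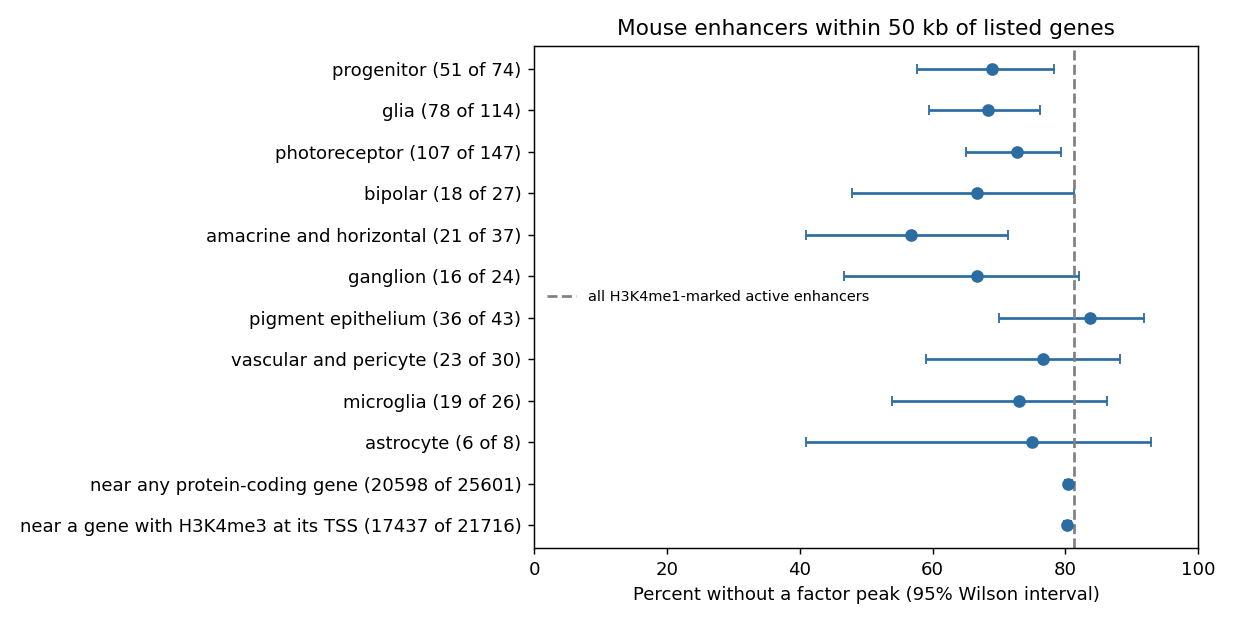
Percent of H3K4me1-marked active enhancers without a factor peak (x axis, with 95% Wilson intervals) within 50 kb of the genes of each list in mouse, with the counts in parentheses and the genome-wide 81.3% as a dashed line. The progenitor, glial, photoreceptor, and amacrine and horizontal intervals end below the line, and those of the other cell lists cross it. Near any protein-coding gene the share was 80.5%, and near genes with H3K4me3 at the TSS it was 80.3%.

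The photoreceptor genes differed widely among themselves. *Rorb*, a nuclear receptor gene needed for rods, had 41 unbound and 3 bound enhancers, and *Thrb*, the thyroid hormone receptor gene needed for long- and medium-wave cones, had 20 and 2. Together 61 of their 66 enhancers (92.4%, 83.5 to 96.7) were unbound. Without *Rorb* and *Thrb*, a split chosen after these values were seen, 46 of 81 enhancers near the other 23 photoreceptor genes were unbound (56.8%, 45.9 to 67.0). *Gnat1*, the rod transducin, had 11 unbound and 6 bound enhancers in its gene-rich window, none of them inside the gene. *Crx*, a homeobox gene of all photoreceptors, had 1 unbound and 4 bound enhancers, and *Prdm1*, which favours photoreceptor over bipolar fate, 3 and 6. *Otx2* itself had 2 and 2. *Mef2c* had 1 and 0, as did some other genes of the list. Of the 25 genes, 9 had no unbound enhancer. Among these only *Nr2e3* and *Gnat2* had bound ones, 3 and 2, and the others, such as *Rxrg*, had neither kind.

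At *Rorb* (chr19:18930605-19111196, minus strand), 38 of the 41 unbound enhancers lay inside the gene, which is 181 kb long. Their folds had a median of 3.56, and the strongest, 151 kb downstream of the gene start, overlapped a coding exon (chr19:18959952-18960728, fold 5.93). The 3 bound enhancers were intronic too, with folds of 2.68, 5.48 and 6.49, the last carrying both factors over 3506 bp. Thus the strongest enhancer of *Rorb* was bound, among many weaker ones that were not.

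At *Thrb* (chr14:17660261-18038090, plus strand), all 20 unbound enhancers were intronic, between 36.3 and 324 kb from the gene start. Their strongest member is the region printed above (peak chr14:17920266-17921680, fold 6.85), 45.7 kb from the nearest Otx2 peak. The next, at 71.0 kb from the gene start, had a fold of 5.18 and ended just before a 3355 bp enhancer with Otx2 and a fold of 7.76. The other Otx2 enhancer had a fold of 3.09.

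Near *Neurod1*, bound and unbound enhancers lay interspersed in introns outside *Neurod1* itself, 35.5 to 53.8 kb from its start. Those farthest from the start were unbound and those nearest to it were bound. There, 4 unbound enhancers (folds 2.59, 3.94, 4.08 and 7.46) stood between or beside 3 with both Otx2 and Neurod1 (5.08, 8.18 and 8.53). The printed region, with a fold of 7.46, was 2.80 kb from an Otx2 peak, so its lack of a factor peak holds for the region and not for the locus.

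Among progenitor genes, *Notch1*, the receptor that holds progenitors undifferentiated, had 13 unbound enhancers and none with a factor peak. Their folds ran from 2.68 to 5.87. Of these, 4 lay in introns and 9 upstream, from 2.08 to 34.8 kb before the gene start, and the strongest was at chr2:26530449-26532198, 14.7 kb upstream. *Ccnd1*, which drives cell cycle entry, had 9 unbound and 1 bound, and 4 of the 9 were shared with the window of *Fgf15*. *Id1*, an inhibitor of basic helix-loop-helix factors, had 7 and 2. *Sox2*, also a progenitor regulator, had 0 and 3, and *Hes1*, *Sfrp2* and *Sox11* had neither kind.

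Among glial genes, *Sox8* had 15 unbound enhancers and 5 with Otx2 in a gene-dense window, and *Slc1a3* 14 and 3, of which 10 unbound and 0 bound lay within the gene. *Nfib*, an NFI factor gene that directs late progenitors toward glia, had 9 and 9 despite its length of 416 kb, and all 9 bound ones were inside the gene. *Spon1* had 8 and 1. *Sox9* and *Glul*, the glutamine synthetase gene of Müller glia, had 0 unbound with 2 and 1 bound.

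Of the bipolar genes, *Prkca*, which encodes the protein kinase C of rod bipolar cells, had 8 unbound and 3 bound enhancers, *Trpm1*, the channel of ON bipolar cells, 3 and 0, *Lhx4* 2 and 2, and *Grik1* 1 and 0. Of the amacrine and horizontal genes, *Prox1*, a homeobox gene of horizontal and AII amacrine cells, had 6 and 2, *Slc6a9* 3 and 3, and *Gad2*, which makes GABA, 3 and 0. *Foxn4*, which directs progenitors to amacrine and horizontal fates, had 4 unbound and 7 bound, 4 of the latter with both factors. Of ganglion cell genes, *Rbpms* had 7, *Sncg* 3, *Elavl4* 2 and *Thy1* 2, with no bound enhancer at any of these, whereas *Klf7* and *Gap43* had 0 unbound and 3 bound each. Most of the genes not named here in the amacrine and horizontal list and in the ganglion cell list had neither kind.

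**Figure D4:**
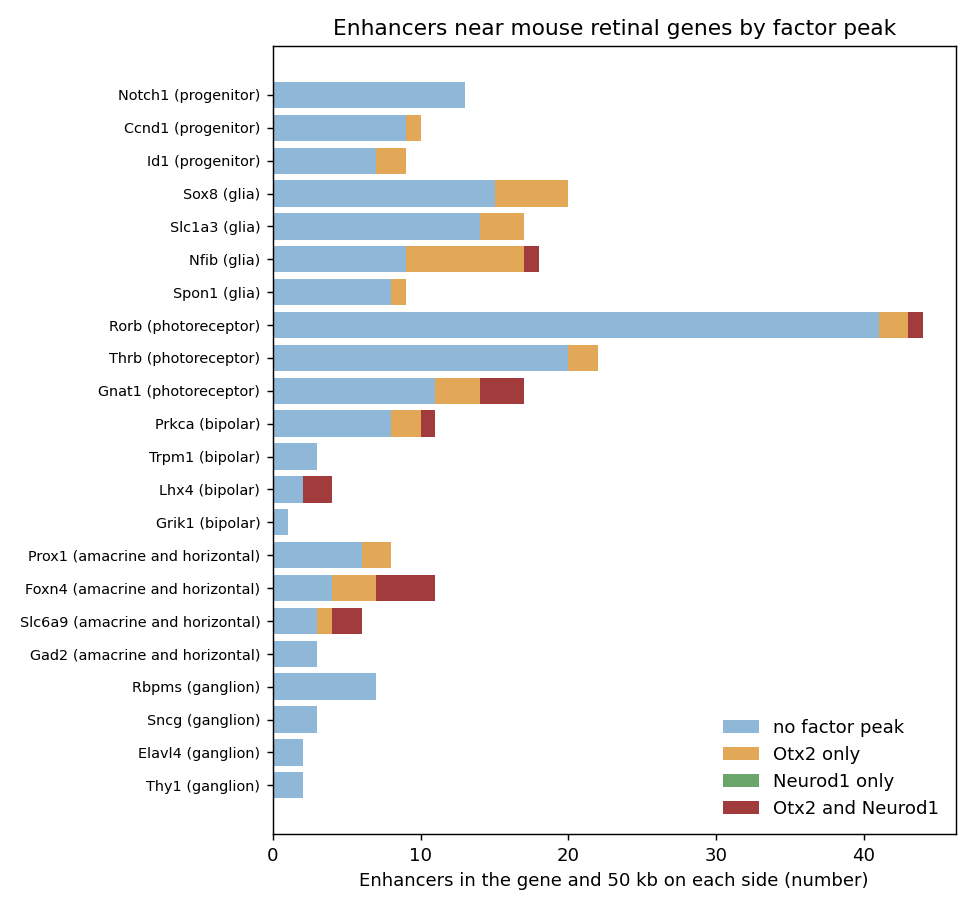
Number of H3K4me1-marked active enhancers (x axis) in the gene and 50 kb on each side for the up to 4 genes with the most unbound enhancers in each retinal list, less those not reported, in mouse, coloured by factor peak. *Rorb* stands out with 41 unbound and 3 bound, *Notch1* has 13 and 0, and *Foxn4* has 4 and 7.

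Genes of other cells held unbound enhancers too. *Trpm3*, a channel gene listed for pigment epithelium and also used in neural retina, had 34 unbound and 6 bound over 856 kb and made up nearly all of its list, while *Rpe65*, *Tyr*, *Dct*, *Pmel* and *Slc45a2* had neither kind, and *Mitf* and *Best1* had 1 and 0. *Kdr*, the endothelial VEGF receptor, had 7 and 2, *Cdh5* 3 and 0, and *Pecam1* 2 and 3. The adjacent genes *Pdgfrb* of pericytes and *Csf1r* of microglia had 7 each with no bound one, and shared 6 of them. *P2ry12* of microglia had 8 and 0, and *Cx3cr1* 1 and 0, whereas *Tmem119*, *Aif1* and *Spi1* had neither kind. *C1qa* had 3 and 7. Of astrocyte genes, *S100b* had 2 and 0, *Aldh1l1* 2 and 1, *Pdgfra* 2 and 1, and *Gfap* and *Pax2* neither kind. The part of such cells in the whole list of unbound enhancers was not tested.

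The cone genes *Rxrg*, *Thrb* and *Mef2c* were followed in both species through the accessible elements that the study links to them. In 13LGS, 13 of the 74 *Rxrg* elements overlapped 11 unbound enhancers, and 1 bound enhancer lay on the elements of this gene. Neighbouring regions at Itri9:101959657-101962162 (2506 bp, fold 7.22, H3K4me1 fold 11.5) and Itri9:101957020-101959427 (2408 bp, fold 6.11, H3K4me1 fold 9.23) were the strongest, and the other 9 had folds of 2.04 to 3.89. For *Thrb*, 9 of 55 elements overlapped 7 unbound enhancers, and 4 bound enhancers lay on *Thrb* elements. The 7 had folds of 2.23 to 4.39, the strongest at Itri2:182678867-182679515. The 5 *Mef2c* elements overlapped neither kind. Of all H3K4me1-marked active enhancers in 13LGS, 86.5% were unbound. In mouse, no element of the 15 for *Rxrg*, 15 for *Thrb* or 2 for *Mef2c* overlapped an unbound enhancer, and 1 bound enhancer lay on the *Rxrg* elements. The stretch of DNA spanned by the mouse *Thrb* elements nevertheless contained 18 unbound and 2 bound enhancers, against 12 and 5 in the 13LGS span. The *Rxrg* span held 25 unbound and 4 bound in 13LGS and 2 and 1 in mouse, and that of *Mef2c* held 10 and 2, and 1 and 0. Element sets were defined separately in each species and their spans differ in length, so these counts stand side by side only.

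Motifs were counted in windows of 150 bp on each side of the H3K27ac summits of mouse on either strand, in GRCm38. The homeobox motif reads the same on both strands, and the Otx2/Crx and homeobox motifs share their first letters. TAATCC (Otx2 and Crx) was found in 9.51% of unbound enhancers, 10.1% of all H3K27ac peaks and 14.3% of enhancers with a factor peak, and in 7.06% of RefSeq promoters of 300 bp. CAGATG (Neurod1) was found in 25.2% of unbound, 24.5% of all and 29.8% of bound summits (promoters 17.1%). Bound summits here pool both factors. CAGATG was found in 45.5% of those with Neurod1 only, 38.8% with both and 25.99% (24.7 to 27.3) with Otx2 only. TAATCC was found in 15.03% with Otx2 only, 13.4% with both and 6.57% (3.96 to 10.7) with Neurod1 only. For the motifs of both profiled TFs, unbound enhancers were thus close to the H3K27ac list as a whole and below the pooled bound ones. Each motif was more frequent than in unbound enhancers where its own factor had a peak. With only the other factor, the interval included the unbound share.

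For 3 other motifs the share around summits was higher in unbound than in bound enhancers. Over whole peaks, which are longer where bound, the order turned, with 36.9% of unbound and 48.0% of bound for Sox, 19.1% and 28.7% for homeobox, and 21.4% and 29.7% for Onecut. Around summits, ACAATG (Sox) was found in 20.9% (20.4 to 21.4) of unbound, 19.3% of all and 18.1% of bound summits (promoters 12.4%). TAATTA, the core of Lhx and Rax homeodomains, was found in 8.82% (8.49 to 9.17), 7.52% and 7.17% (promoters 5.29%). ATCAAT (Onecut) was found in 10.3% of unbound, 10.2% of all and 7.90% of bound summits (promoters 7.42%). In the order Sox, homeobox, Onecut, summits with Otx2 only had 19.2%, 7.82% (7.06 to 8.64) and 8.31%. Those with both factors had 14.7%, 5.65% and 6.93%, and with Neurod1 only 18.3%, 4.23% and 6.10%. Intervals overlapped the unbound ones for homeobox with Otx2 only, and for Sox and Onecut with Neurod1 only (213 summits). H3K27ac peaks with no other mark or factor had 19.5%, 7.09% and 11.8% (11.4 to 12.2), with Onecut above the unbound share. Bound summits were richer in G and C, with a median of 49.5% against 46.2% for unbound enhancers and for all H3K27ac peaks, and the part of base composition in these shares was not tested.

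The lower share in unbound enhancers was not limited to the motifs of the profiled TFs. TTGGCA (NFI) was found in 16.3% (15.9 to 16.8) of unbound, 15.9% of all and 18.5% (17.5 to 19.4) of bound summits (promoters 14.1%), and CCGGAA (ETS) in 3.00%, 3.56% and 3.92%, and in 4876 of 32544 promoters. The intervals of unbound and bound summits overlapped for the others. TGANTCA (AP-1) was found in 9.89%, 9.40% and 9.17% (promoters 7.79%), GGAATG (TEAD) in 16.8%, 16.5% and 16.5% (14.6%), and AGGTCA, the nuclear receptor hexamer that thyroid, retinoid and Ror receptors bind, in 22.1%, 20.6% and 21.9% (16.2%). Among unbound enhancers, TAATCC did not become more frequent toward Otx2 peaks, with 8.78% (7.60 to 10.1) of 1924 closer than 1 kb and 10.7% (9.83 to 11.6) of 4826 beyond 100 kb. A match is a string of letters and not a measured binding site.

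**Figure D5:**
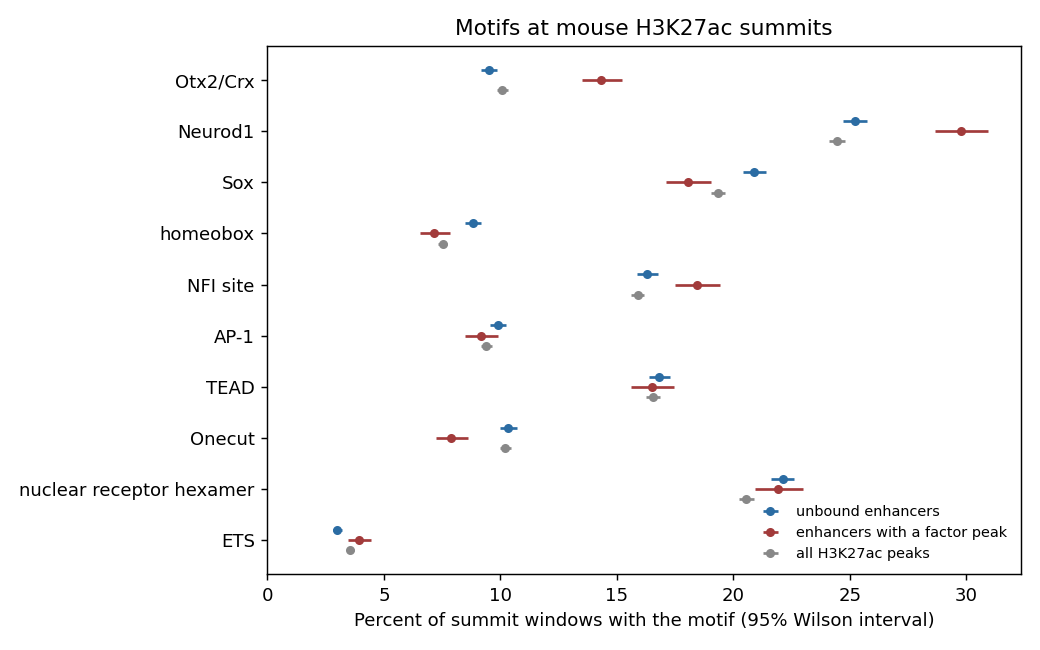
Percent of mouse H3K27ac summit windows that hold each of 10 motifs (x axis) in unbound enhancers, enhancers with an Otx2 or Neurod1 peak and all H3K27ac peaks, with 95% Wilson intervals. Unbound enhancers lie below bound ones for the Otx2/Crx (9.51% and 14.3%), Neurod1, NFI (16.3% and 18.5%) and ETS (3.00% and 3.92%) motifs and above them for the Sox, homeobox and Onecut motifs, whose order turned over whole peaks.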

How the data were processed

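CUT&RUN peak lists for H3K27ac, H3K4me1, H3K4me3, Otx2 and Neurod1 in P5 13LGS and P2 mouse retina were used, 10 lists in all. The authors trimmed reads, aligned them with Bowtie2 (GRCm38 for mouse, HiC_Itri_2 for 13LGS), removed duplicates, and called peaks with MACS2 against IgG on all libraries of a target together, at a q-value of 0.05. Fold enrichment is a ratio of signal to control as deposited by the authors, and significance is the −log10 q-value as deposited by the authors. Neither was rescaled, and read totals are unknown.

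Overlaps were computed in Python 3.11.15 with numpy 2.4.6 and pandas 2.3.3 and tested on simulated intervals against bedtools 2.31.1. Shares have 95% Wilson intervals (scipy 1.17.1). No tests were made, because the peak calls define the regions and each list has 1 value per peak. Mouse genes came from GENCODE release M21, with windows of the gene and 50 kb on each side, and sequence from RefSeq GRCm38, whose chromosome lengths hold all mouse peaks.

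The regions and gene lists were chosen with earlier results of these data known. Named are the up to 4 genes per list with the most unbound enhancers, and *Rxrg*, *Thrb* and *Mef2c*. Also named, per species, are regions among the 10 strongest and the 5 runs with the most members. Named after their values were seen were *Otx2*, *Crx*, *Prdm1*, *Neurod1*, *Nr2e3* and *Gnat2* of the photoreceptor list and, in the other lists, the genes given with no unbound enhancer. The 13LGS genome sequence and annotation were not used here. Some genes and motifs are not reported here.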

Additional observations from a re-analysis of the deposited data

How the results depend on the processing

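No paired analysis was possible because each list pools all libraries of its target and no result comes from a test. For the same reason no library could be left out. In the order 13LGS, mouse, the unbound share of H3K4me1-marked active enhancers was 89.3% and 83.2% when every overlap had to reach 250 bp, 78.7% and 71.0% with only H3K27ac peaks of −log10 q of at least 5, 85.7% and 79.9% with that limit on H3K4me1, and 92.0% and 86.7% with it on both factors. It was 81.2% and 75.1% when factor peaks within 1000 bp counted, 85.1% and 80.4% at any width, 89.3% and 84.0% under 2000 bp, 82.9% and 81.8% with the same number of peaks per target, and 85.4% and 80.1% with H3K27ac peaks within 500 bp joined. On chromosomes only it stayed within the counting interval. The number of unbound enhancers moved by more than 1.5 times with the H3K27ac limit alone, to 21469 and 10272. The share was higher in 13LGS under each of these settings. Their ratio between the species ran from 1.32 (same number of peaks per target) to 2.09 (H3K27ac limit). Around mouse gene lists, windows of 10 kb, 200 kb and the nearest TSS kept each share within its counting interval except for microglia, which ran from 37.5% to 100%. Shares near all retinal lists stayed below the genome-wide 81.3%, but some came nearer to it. They reached 75.9% near progenitor, 74.8% near glial, 78.1% near photoreceptor, and 71.1% near amacrine and horizontal genes. Intervals were not computed for these windows, so the separation from 81.3% holds for the 50 kb windows only. Motif shares rose and fell with window size. With 75 bp on each side, the unbound and bound summits kept their order for every motif except the nuclear receptor hexamer, and over whole peaks, which are longer where bound, bound peaks led for every motif. The median TSS distance was 58.2 kb from the peak centre too. Read depth, which the lists do not give, limits which factor peaks could be called.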
